A study of Mus musculus with 4 samples.

Results

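Nrf2, encoded by Nfe2l2, is a transcription factor of the cap'n'collar family that switches on antioxidant and detoxifying genes. The 10 genes of that programme described here are Nfe2l2 itself and 9 of its best known targets, Nqo1, Gclc, Gclm, Srxn1, Txnrd1, Slc7a11, Osgin1, Prdx1 and G6pdx. They were chosen by name, with earlier results of these arrays known. They took up 10 of the 27670 gene names and 20 of the 41174 probes on the array, after older symbols were matched (the Osgin1 probes carry the name 1700012B18Rik in the files).

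The 4 arrays compared brain RNA of male C57BL/6J mice aged 8 to 12 weeks. In the PMCAO group, a filament advanced through the right common carotid artery blocked the middle cerebral artery permanently. In the sham group the external carotid artery was only exposed. Both groups received saline into the cerebral ventricle, and groups of 3 mice were taken at 24 h or at 6 h after it. Each time had 2 arrays carrying PMCAO and sham RNA in opposite dyes: PMCAO RNA was in Cy5 on array 1 and in Cy3 on array 2. The labels do not say whether arrays 1 and 2 hold separate RNA or how the 3 mice were combined, so each p-value reflects array-to-array spread alone, and that spread may be technical. The 2 arrays of a time also differ in dye orientation. The main model has no term for it, so any dye effect is part of that spread. The labels give the tissue as brain, while the study's design text names the contralateral hemisphere. All 4 arrays were on 1 slide and were read in 1 scan.

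In resting cells the adaptor Keap1 hands Nrf2 to a Cul3 ubiquitin ligase, and the protein is quickly destroyed. Oxidants and electrophiles modify Keap1 cysteines, Nrf2 then accumulates in the nucleus, pairs with a small Maf protein and binds antioxidant response elements (AREs). In brain the pathway is best known from astrocytes, whose glutathione supply also serves neurons. The array reads RNA, so it shows Nfe2l2 transcript and not the amount or location of the Nrf2 protein.

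All 20 probes were well above background in all 8 channels, and all 10 genes were tested. At 24 h, 73.7% of spots were well above background in PMCAO and 70.6% in sham on array 1, and 66.3% in PMCAO and 73.6% in sham on array 2. At 6 h the shares were 68.5% in PMCAO and 67.3% in sham on array 1, and 67.8% in PMCAO and 70.5% in sham on array 2. The share was higher in the Cy5 channel on all 4 arrays. Pearson's r between array 1 and array 2 over the genes tested was 0.671 at 24 h and 0.582 at 6 h, across genes that are not independent. Between the 2 times it was 0.612 for the arrays numbered 1 and 0.628 for those numbered 2, which share a dye orientation, and 0.319 and 0.382 for arrays of opposite orientation. The 10 neuron, 10 astrocyte and 10 oligodendrocyte markers listed were well above background in every channel, so the label brain was borne out by its markers. These markers cannot tell which hemisphere was used.

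At 24 h the ratio of PMCAO over sham was above 0 on both arrays for all 10 genes and all 20 probes, against 31% of the 19123 genes measured on both arrays. Both PMCAO levels also lay above both sham levels for all 10 genes, a pattern seen in 28.8% of genes, and below them for 0 genes (28.3% of genes). Of the 10, 6 genes, Osgin1, Srxn1, Nfe2l2, Nqo1, Slc7a11 and Txnrd1, rose past an adjusted p of 0.05 in limma's moderated test, and 0 fell. Over the 19127 genes tested, 7.84% rose and 4.52% fell at 24 h. The median log2 ratio of the 10 genes was 0.45, beside 0.0008 over all genes tested. The lowest of the 10 was Gclc at 0.25 and the highest was Osgin1 at 1.63.

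At 6 h none of the 10 passed the test in limma in either direction, while 0.816% of all genes rose and 0.0366% fell. That model has no term for dye orientation, which is also the sample number. With such a term, Srxn1, Gclc and Osgin1 passed at 6 h, where 1131 of all genes were higher and 571 lower. All 10 then passed at 24 h, where 3913 of all genes were higher and 3683 lower. Of the 10, 3 genes (Srxn1, Gclc and Osgin1) had an unadjusted p under 0.05, all with ratios above 0, where 6.16% of all genes were higher and 2.58% lower at that threshold. Both arrays were above 0 for 6 genes, against 28.4% of all genes, both were below 0 for 2 (28% of all genes), and the 2 arrays had opposite signs for 2. Both PMCAO levels lay above both sham levels for 5 genes (23.6% of all genes) and below them for 2 genes (22.6% of all genes). The median log2 ratio of the 10 was 0.042, beside -0.0051 over all genes. With Agilent's processed signals in place of normexp and loess, 51.7% of all calls at 24 h were higher in PMCAO, beside 63.4% in the values used here. Centring each array on its median in place of loess ended all 6 calls at 24 h, where 1 of the 10 then had an unadjusted p under 0.05 in limma. The 24 h ratios were then 1.56 for Osgin1, 0.69 for Srxn1, 0.64 for Nqo1, 0.61 for Nfe2l2, 0.38 for Slc7a11 and 0.23 for Txnrd1, and of these the Txnrd1 value alone moved by over 1.5 times.

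**Figure D1:**
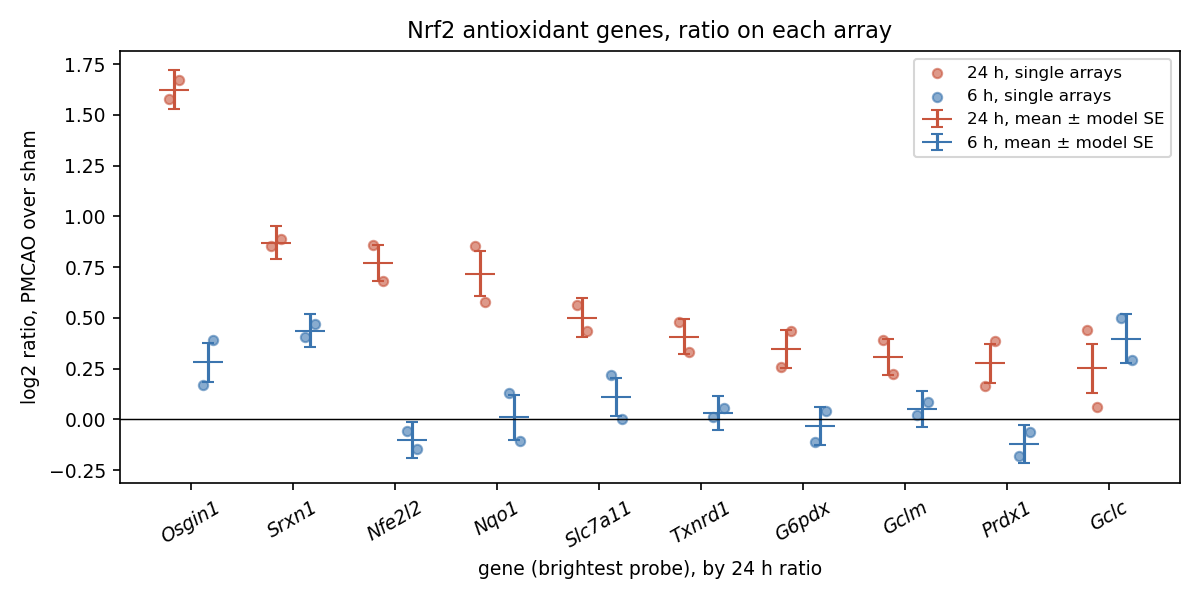
Log2 ratio of PMCAO over sham for the brightest probe of each gene, ordered by the 24 h value: dots are single arrays, horizontal marks the mean of 2 arrays, and error bars the model's standard error. At 24 h (red) all 10 means lie between 0.25 and 1.63, and at 6 h (blue) between -0.12 and 0.44.

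Of the 10 genes, Nfe2l2 is the regulator (chr2:75675513-75704663, minus strand, GRCm38.p6). Its log2 ratios at 24 h were 0.86 on array 1 and 0.68 on array 2. At 6 h they were -0.059 on array 1 and -0.15 on array 2. Both 24 h arrays stood above both 6 h arrays, which were slightly below 0. The mean was 0.77 ± 0.0893 at 24 h (a 1.71-fold rise, SE of the model, n = 2 arrays, limma adjusted p = 0.00647) and -0.10 ± 0.0893 at 6 h (adjusted p = 0.951). The ratio at 24 h exceeded that at 6 h by 0.87 ± 0.126 on the log2 scale (adjusted p = 0.0441), where 1.29% of all genes had a higher and 0.298% a lower ratio at 24 h. This difference did not pass with the series table (0.89, adjusted p = 0.0967) or with median centring (0.68). That difference no longer passed the test without array 1 at 6 h (0.92, adjusted p = 0.156) or without array 2 at 6 h (0.83, adjusted p = 0.232), and it was also lost with processed signals (0.89, adjusted p = 0.0965), with the mean of the gene's probes (0.53, adjusted p = 0.146) and, at an unchanged 0.87, with a stricter filter on dim probes (adjusted p = 0.0552) or every probe tested on its own (adjusted p = 0.0551).

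The normalised log2 levels of the same probe show which arm moved on that probe. Nfe2l2 stood at 12.21 and 12.14 in PMCAO at 24 h, against 11.35 and 11.46 in sham at 24 h. At 6 h it stood at 11.49 and 11.46 in PMCAO, against 11.55 and 11.60 in sham. The PMCAO level was 0.71 ± 0.0707 higher at 24 h than at 6 h (separate-channel limma fit, adjusted p = 0.000498), where 12.7% of all genes rose and 8.53% fell. The sham level was -0.17 ± 0.0707 at 24 h over 6 h, which did not pass the test (adjusted p = 0.212). The 4 Nfe2l2 probes gave 24 h ratios between 0.45 and 0.77 and 6 h ratios between -0.10 and 0.40. Tested on their own at 24 h, A_51_P411271 (adjusted p = 0.00779) and A_52_P523835 (0.56, adjusted p = 0.0253) passed, where 6.57% of all probes rose and 3.33% fell. A_52_P396436 (0.69, adjusted p = 0.0519) and A_52_P1107697 (0.45, adjusted p = 0.0999) did not. The 2 with the lowest 24 h ratios, A_52_P1107697 and A_52_P523835, were designed on clone sequences and lie at other places of the locus. A_52_P523835 had 0.27 and 0.53 on the 6 h arrays (mean 0.40, adjusted p = 0.261 over all probes). Tested by probe in the separate-channel fit, the PMCAO level of A_52_P396436 also rose between the times (0.64, adjusted p = 0.00816). It did not pass for A_52_P1107697 (0.26, adjusted p = 0.18) or A_52_P523835 (0.036, adjusted p = 0.911), so the probes did not give 1 answer.

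The element that Nrf2 and small Maf proteins bind can be looked for in the start regions of these genes. RefSeq (GRCm38.p6) windows of 300 bases, from 250 before to 50 after a gene's start, were given for 9 of the 10 genes, in 11 windows, and Gclc is only named. They were searched on both strands for TGACNNNGC (the ARE core) and for TGANTCAGC (the Nrf2-Maf form of a Nrf2 and small Maf site). The 2 are of the same length, and the Nrf2-Maf form need not match the core. TGANTCA (the AP-1 site, which lies within the Nrf2-Maf form) was searched as well. The ARE core was found in 6 genes (Nfe2l2, Srxn1, Txnrd1, G6pdx, Gclm and Prdx1), beside 14% of the 27025 genes with a window. The Nrf2-Maf form was found in 3 genes (Osgin1, Srxn1 and Prdx1), beside 1.4% of genes, and the AP-1 letters in the same 3 genes, beside 9% of genes. Neither Nrf2 motif was in the Nqo1 or the Slc7a11 window, which says nothing of elements outside it. The windows of the 2 genes with the highest 24 h ratios, of 1 called gene with the core alone and of 1 uncalled gene with the Nrf2-Maf form are printed 5′ to 3′ in the direction of the gene, all on the plus strand. Capitals mark matches to TGACNNNGC or TGANTCAGC on either strand, so a site on the other strand reads as its reverse complement.
Osgin1 (chr8:119436897-119437196): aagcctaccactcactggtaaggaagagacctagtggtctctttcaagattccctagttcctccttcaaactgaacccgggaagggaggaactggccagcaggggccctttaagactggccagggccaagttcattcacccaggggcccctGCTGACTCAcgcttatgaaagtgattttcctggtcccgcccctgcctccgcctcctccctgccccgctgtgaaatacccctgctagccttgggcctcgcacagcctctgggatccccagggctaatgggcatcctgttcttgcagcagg
Srxn1 (chr2:152105274-152105573): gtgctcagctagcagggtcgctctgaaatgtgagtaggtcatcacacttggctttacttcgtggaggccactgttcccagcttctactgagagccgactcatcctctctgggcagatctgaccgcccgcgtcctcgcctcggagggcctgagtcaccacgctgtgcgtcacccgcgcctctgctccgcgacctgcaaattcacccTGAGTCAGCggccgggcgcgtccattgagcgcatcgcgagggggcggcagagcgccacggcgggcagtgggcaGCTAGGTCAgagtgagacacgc
Txnrd1 (chr10:82858956-82859255): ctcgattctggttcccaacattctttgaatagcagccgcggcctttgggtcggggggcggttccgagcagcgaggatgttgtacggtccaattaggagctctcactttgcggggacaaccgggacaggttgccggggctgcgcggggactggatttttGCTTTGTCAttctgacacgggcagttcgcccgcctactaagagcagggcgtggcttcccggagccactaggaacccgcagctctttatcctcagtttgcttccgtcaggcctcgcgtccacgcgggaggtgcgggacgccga
Prdx1 (chr4:116685349-116685648): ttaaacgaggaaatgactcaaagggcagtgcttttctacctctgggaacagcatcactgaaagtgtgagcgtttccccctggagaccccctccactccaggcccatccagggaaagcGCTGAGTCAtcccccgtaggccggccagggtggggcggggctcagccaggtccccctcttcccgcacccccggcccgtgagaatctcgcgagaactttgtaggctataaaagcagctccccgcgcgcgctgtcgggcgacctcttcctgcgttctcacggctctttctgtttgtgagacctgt
In Osgin1 the Nrf2-Maf form began 99 bases before the start as GCTGACTCA, where that start lies inside the annotated span of the gene. In Srxn1 it began 45 bases before the start as TGAGTCAGC, and a core match on the other strand, GCTAGGTCA, began 29 bases after the start. In Txnrd1 the core match GCTTTGTCA began 92 bases before the start in 1 of the gene's 3 windows. In Prdx1, 1 stretch beginning 133 bases before the start, GCTGAGTCA, matched both Nrf2 motifs. A match of letters is a description of the sequence, and no binding was measured.

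Osgin1, an oxidative stress induced growth inhibitor (chr8:119425882-119446257), had the highest ratio of the 10. It reached 1.58 on array 1 and 1.67 on array 2 at 24 h. At 6 h it reached 0.17 on array 1 and 0.39 on array 2. All 4 ratios were above 0, and the 2 times did not overlap. The mean was 1.63 ± 0.0945 at 24 h (3.09-fold, limma adjusted p = 0.00072) and 0.28 ± 0.0945 at 6 h (adjusted p = 0.451). The ratio was higher at 24 h than at 6 h by 1.34 ± 0.134 (adjusted p = 0.0172). This difference no longer passed the test with processed signals (1.44, adjusted p = 0.056), the series table (1.45, adjusted p = 0.0564) or median centring (1.31). In levels, Osgin1 stood at 9.41 and 9.40 in PMCAO at 24 h, against 7.84 and 7.73 in sham at 24 h. At 6 h it stood at 7.96 and 8.09 in PMCAO, against 7.79 and 7.69 in sham. The PMCAO level of this brightest probe rose by 1.39 ± 0.0784 between the times (adjusted p = 3.35e-05), and its sham level was 0.045 ± 0.0784 at 24 h over 6 h (adjusted p = 0.783).

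The 3 Osgin1 probes did not give 1 value. At 24 h the ratio was 1.63 for A_51_P189361, 0.80 for A_52_P576854 and 0.12 for A_52_P259174. The first 2 were designed on the gene's RefSeq transcript and lie next to each other on an unassigned contig of mm7, and each passed the test on its own (adjusted p = 0.000945 and 0.0104 over all probes). The third was designed on a predicted transcript, has no position in the files and did not pass (adjusted p = 0.45). The mean of the 3 was 0.85 at 24 h (adjusted p = 0.00269) and its difference between the times was 0.76 (adjusted p = 0.0375). The level of A_52_P576854 was also uneven between arrays: it read 7.98 in PMCAO and 7.94 in sham on array 1 at 6 h, and between 6.77 and 7.72 in the 6 other channels. Both channels of that array were high alike, with a ratio of 0.046.

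The thioredoxin and peroxiredoxin branch holds Srxn1, Txnrd1 and Prdx1. Srxn1 encodes sulfiredoxin, which repairs over-oxidised peroxiredoxins (chr2:152105524-152111376). Its ratios were 0.85 and 0.89 at 24 h, and 0.41 and 0.47 at 6 h. Among the 10 genes it had the closest pair of arrays at 24 h, and it stood above 0 on all 4 arrays. The mean was 0.87 ± 0.0804 at 24 h (1.83-fold, limma adjusted p = 0.00317) and 0.44 ± 0.0804 at 6 h (adjusted p = 0.119). The 2 times differed by 0.43 ± 0.114, which did not pass the test (adjusted p = 0.164).

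Srxn1 stood at 14.55 and 14.63 in PMCAO at 24 h, against 13.70 and 13.74 in sham at 24 h, on the log2 level scale. At 6 h it stood at 14.04 and 14.06 in PMCAO, against 13.63 and 13.59 in sham. The PMCAO channels lay above the sham channels at both times without overlap. Its 3 probes gave ratios between 0.87 and 1.18 at 24 h and between 0.44 and 0.75 at 6 h, all higher than 0 on every array. The probe that stands for the gene, the brightest, was the lowest of the 3 at both times. Another, A_51_P330125 (mm7 chr2:151850353-151850412), rose at 6 h on its own (0.67 ± 0.079, adjusted p = 0.0417), the only 1 of the 20 probes that did, where 0.611% of all probes rose and 0.0138% fell. The third, A_52_P593200 (mm7 chr2:151850306-151850365), shares 13 bases with it, so these 2 are not independent readings. Fitted at 6 h alone or without either 24 h array, the 6 h ratio of the brightest probe passed the test as well (adjusted p = 0.000684).

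Txnrd1 encodes the cytosolic thioredoxin reductase (chr10:82833951-82897724). Its ratios were 0.48 and 0.33 at 24 h, and 0.010 and 0.054 at 6 h. The 24 h arrays lay above the 6 h arrays, which were near 0. Its mean of 0.41 ± 0.0854 at 24 h was the smallest of the 6 calls (adjusted p = 0.0375). The call was lost with 24 h fitted alone (adjusted p = 0.104), with processed signals (0.38, adjusted p = 0.0865), with the series table (0.38, adjusted p = 0.0863) and with median centring (0.23). It was also lost without either 6 h array, and without array 1 at 24 h, where the ratio of 0.33 rests on 1 array in 1 dye orientation.

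Prdx1 encodes an abundant peroxiredoxin, the kind of enzyme that Srxn1 repairs (chr4:116685599-116700000). Its ratios were 0.17 and 0.39 at 24 h, and -0.18 and -0.061 at 6 h. It was above sham on both 24 h arrays and below it on both 6 h arrays. Neither mean passed the test (0.28 ± 0.0954, adjusted p = 0.128 at 24 h, and -0.12 ± 0.0954, adjusted p = 0.928 at 6 h), nor did their difference of 0.40 ± 0.135 (adjusted p = 0.264). Without array 1 at 24 h its 24 h ratio was 0.39, which rests on 1 array in 1 dye orientation.

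Glutathione supply is covered by Slc7a11, Gclc and Gclm. Slc7a11 encodes the cystine carrier xCT, which brings in the precursor (chr3:50364936-50499087). Its ratios were 0.56 and 0.44 at 24 h, and 0.22 and 0.0012 at 6 h. Both 24 h arrays exceeded both 6 h arrays, and array 2 at 6 h was level with sham. The mean was 0.50 ± 0.0954 at 24 h (adjusted p = 0.0291) and 0.11 ± 0.0954 at 6 h (adjusted p = 0.95). The 24 h call was lost with processed signals (0.46, adjusted p = 0.0567), with the series table (0.46, adjusted p = 0.0568) and with median centring (0.38).

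Slc7a11 was the 1 gene of the 10 whose sham level rose between the times, where 2.6% of all genes rose and 1.67% fell in sham. It stood at 10.29 and 10.22 in PMCAO at 24 h, against 9.73 and 9.79 in sham at 24 h. At 6 h it stood at 9.48 and 9.31 in PMCAO, against 9.26 and 9.31 in sham. Both arms were thus higher at 24 h, by 0.86 ± 0.08 in PMCAO (adjusted p = 0.000361) and by 0.47 ± 0.08 in sham (adjusted p = 0.023). The sham call was lost without array 1 at 6 h (0.45, adjusted p = 0.206) or without array 2 at 6 h (0.49, adjusted p = 0.18). The other 9 genes had sham values between -0.17 and 0.14 at 24 h over 6 h, with adjusted p-values of 0.212 or more.

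The 4 Slc7a11 probes were all above 0 on both arrays at 24 h, with means between 0.36 and 0.95. They disagreed on the sham level, for which 2.57% of all probes rose and 1.6% fell: at 24 h over 6 h it was 0.96 for A_52_P663446 (mm7 chr3:50490980-50491039, adjusted p = 0.00253 over all probes) and 0.47 for the brightest, A_52_P368057 (mm7 chr3:50490342-50490401, adjusted p = 0.0224). It was 0.30 for A_52_P298824 (mm7 chr3:50567425-50567484, adjusted p = 0.141) and -0.33 for A_51_P129502 (mm7 chr3:50496689-50496748, adjusted p = 0.153). The last of these had the highest ratio of PMCAO over sham at 24 h among the 4.

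Gclc and Gclm encode the catalytic and the modifier subunit of glutamate-cysteine ligase, the rate-limiting enzyme of glutathione synthesis. Gclc (chr9:77754535-77794489) gave 0.44 and 0.061 on the 24 h arrays, and 0.50 and 0.29 on the 6 h arrays. It was the 1 gene of the 10 with a lower mean at 24 h (0.25 ± 0.122, adjusted p = 0.245) than at 6 h (0.40 ± 0.122, adjusted p = 0.379). That difference of -0.15 ± 0.172 did not pass the test (adjusted p = 0.819). Without array 2 at 24 h the 24 h ratio of Gclc was 0.44, which rests on 1 array in 1 dye orientation. Fitted at 6 h alone, with both 6 h arrays, its 6 h ratio passed the test (adjusted p = 0.00275).

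Gclm (chr3:122245487-122267215) gave 0.39 and 0.22 on the 24 h arrays, and 0.020 and 0.085 on the 6 h arrays. All 4 were above 0 and the times did not overlap, yet neither mean passed the test (0.31 ± 0.0877 at 24 h, adjusted p = 0.0839, and 0.053 ± 0.0877 at 6 h). Without array 2 at 24 h its ratio was 0.39, and without the other 24 h array it was 0.22. Each of these values rests on a single array in a single dye orientation. The Gclm levels at 24 h were 8.75 and 8.79 in PMCAO, against 8.36 and 8.57 in sham.

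Quinone reduction and NADPH supply are covered by Nqo1 and G6pdx. Nqo1 encodes NAD(P)H quinone dehydrogenase, a widely used readout of Nrf2 activity (chr8:107388225-107403205). Its ratios were 0.86 and 0.58 at 24 h, and 0.13 and -0.11 at 6 h. Both 24 h arrays were well above both 6 h arrays, which lay on either side of 0. The mean was 0.72 ± 0.111 at 24 h (1.64-fold, adjusted p = 0.0161) and 0.012 ± 0.111 at 6 h, and the difference of 0.71 ± 0.157 did not pass the test (adjusted p = 0.114). In levels, Nqo1 stood at 9.53 and 9.31 in PMCAO at 24 h, against 8.67 and 8.73 in sham at 24 h. At 6 h it stood at 8.88 and 8.75 in PMCAO, against 8.75 and 8.85 in sham.

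G6pdx encodes glucose-6-phosphate dehydrogenase, which makes NADPH in the pentose phosphate pathway (chrX:74409483-74428880, minus strand). Its ratios were 0.26 and 0.44 at 24 h, and -0.11 and 0.044 at 6 h. The mean of 0.35 ± 0.0935 at 24 h did not pass the test (adjusted p = 0.0728). Without array 1 at 24 h the ratio was 0.44, which rests on 1 array in 1 dye orientation. The mouse genome holds a close copy, G6pd2, whose share of this probe's signal was not tested.

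**Figure D2:**
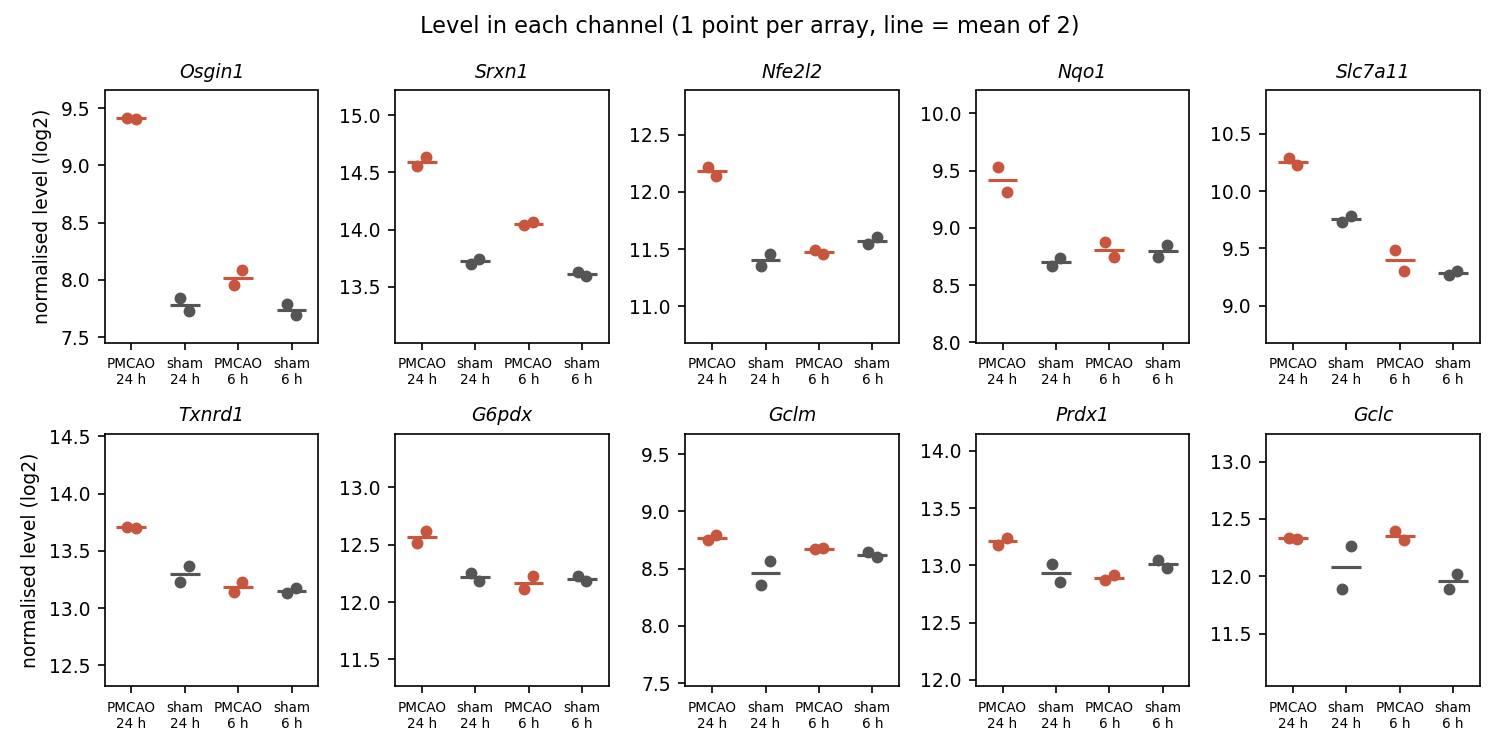
Normalised log2 level of the brightest probe of each gene in every channel, with PMCAO in red and sham in grey, at 24 h (left pair) and 6 h (right pair) of each panel. Points are single arrays and lines the mean of 2. Every panel spans the same range of log2 units. In all 10 panels both PMCAO points at 24 h lie above both sham points, and Slc7a11 is also higher in sham at 24 h than at 6 h.

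Read along the PMCAO arm alone, by the brightest probe of each gene, 8 of the 10 genes rose at 24 h over 6 h. They rose by 0.32 (Prdx1) to 1.39 (Osgin1), where 12.7% of all genes rose and 8.53% fell. Gclm (0.096 ± 0.0897, adjusted p = 0.489) and Gclc (-0.024 ± 0.123, adjusted p = 0.918) were the other 2. Without array 1 or without array 2 at 6 h the number was 5. Other probes of these genes did not all follow in the separate-channel fit over all probes. The PMCAO rise did not pass for Osgin1 A_52_P576854 (0.13, adjusted p = 0.875) or A_52_P259174 (0.20, adjusted p = 0.0728). Nor did it pass for Srxn1 A_51_P330125 (0.19, adjusted p = 0.0813) or for the Nfe2l2 probes on clone sequences. It passed for Srxn1 A_52_P593200 (0.40, adjusted p = 0.0308), Nfe2l2 A_52_P396436 and every Slc7a11 probe. The ratio over sham of each single probe at 24 h was tested as well: 13 of the 20 rose on their own, where 6.57% of all probes rose and 3.33% fell. The 10 genes can be set in order at 24 h, from Osgin1 down to Gclc, but below Osgin1 each gene differed from the next by less than the sum of their standard errors, except for the step from Nqo1 (0.72) to Slc7a11 (0.50). Over the 10 genes the 2 arrays differed by a median of 0.172 at 24 h and 0.138 at 6 h, beside 0.204 and 0.127 over all genes.

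**Figure D3:**
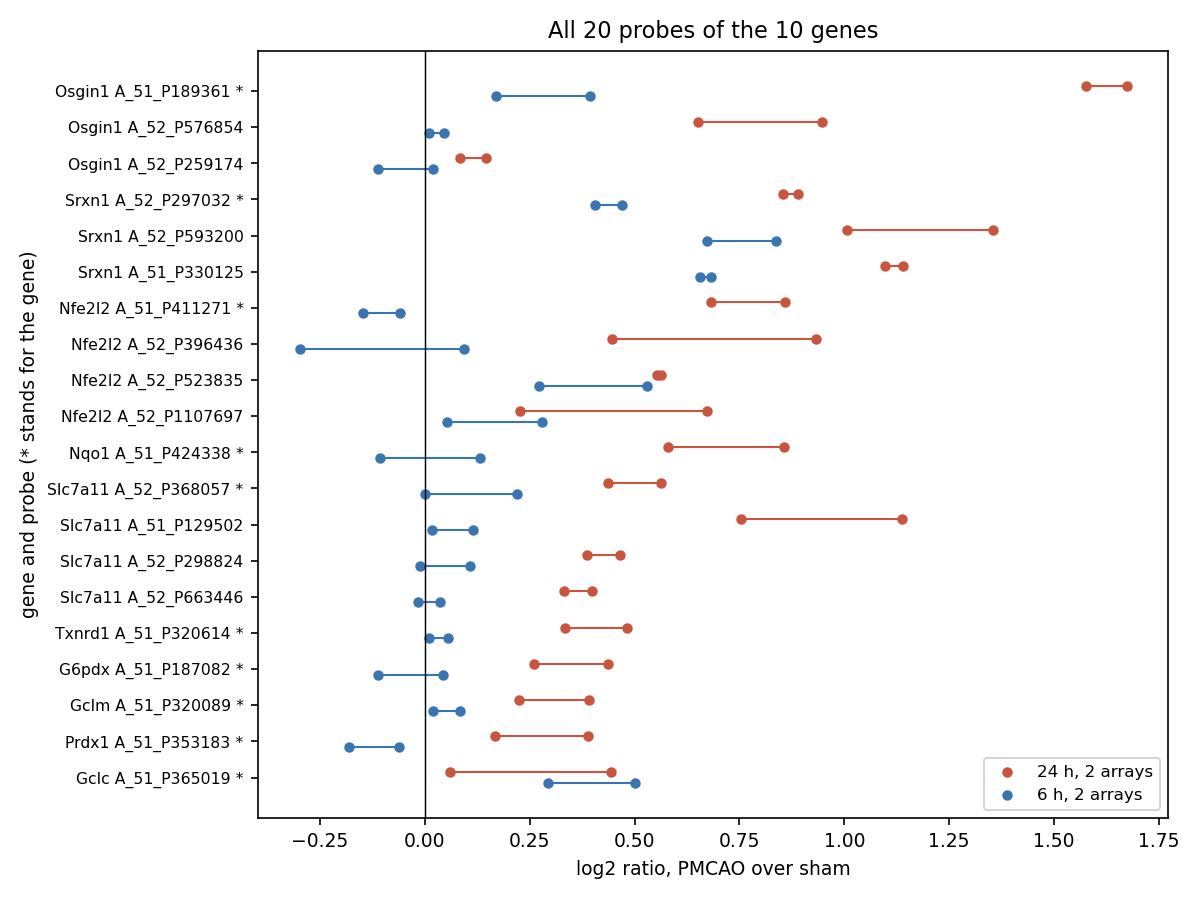
Log2 ratio of PMCAO over sham for all 20 probes of the 10 genes, with the 2 arrays of a time joined by a line, 24 h (red) above 6 h (blue) in each row. Every point at 24 h lies above 0. The 3 Osgin1 probes spread from 0.12 to 1.63 in their means.

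The proteins that hold, partner or oppose Nrf2 gave a mixed list. Of 12 regulators and partners tested, 3 rose and 1 fell at 24 h, and 2 rose at 6 h, with a median ratio of -0.0054 at 24 h and -0.0041 at 6 h. Over all genes, 7.84% rose and 4.52% fell at 24 h, and 0.816% rose and 0.0366% fell at 6 h. The small Maf genes Maff and Mafk, whose proteins pair with Nrf2, rose at both times. Maff stood at 3.32 and 2.99 at 24 h and at 2.24 and 2.41 at 6 h (means 3.16 ± 0.111, adjusted p = 0.000202, and 2.32 ± 0.111, adjusted p = 0.00388). Mafk stood at 1.03 and 1.02 at 24 h and at 0.67 and 0.91 at 6 h (means 1.02 ± 0.0934, adjusted p = 0.00308, and 0.79 ± 0.0934, adjusted p = 0.033). The third small Maf gene, Mafg, had arrays of opposite sign at 24 h (-0.30 and 0.22, adjusted p = 0.888).

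Bach1, a repressor that competes with Nrf2 for the same elements, rose at 24 h with ratios of 0.91 and 0.75 (mean 0.83 ± 0.0869, adjusted p = 0.00479). Its 6 h ratios were 0.33 and 0.28 (adjusted p = 0.33). Bach2, its relative, fell at 24 h with ratios of -0.48 and -0.71 (mean -0.60 ± 0.0962, adjusted p = 0.0179). Keap1 itself had 0.20 ± 0.0953 at 24 h (adjusted p = 0.236) and -0.10 ± 0.0953 at 6 h (adjusted p = 0.964). Sqstm1, whose protein draws Keap1 into autophagy, gave 0.76 and -0.16 on the 24 h arrays and is therefore not settled in sign.

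Of 24 other genes known to be induced by Nrf2, 5 rose and 0 fell at 24 h, beside 7.84% and 4.52% of all genes. At 6 h 1 rose, beside 0.816% of all genes. Their median was 0.12 at 24 h and 0.015 at 6 h. Hmox1, the haem-degrading oxygenase, was far above the others at 2.90 and 2.83 at 24 h and at 1.25 and 1.18 at 6 h (means 2.86 ± 0.0816, adjusted p = 0.000173, and 1.21 ± 0.0816, adjusted p = 0.00746). In the 3 lists set beside the 10 genes, Hmox1 and Maff alone exceeded Osgin1 at 24 h. Ftl1 (ferritin light chain, 0.72 ± 0.164, adjusted p = 0.0478), Pgd (the next NADPH-making enzyme after G6pdx, 0.55 ± 0.0795, adjusted p = 0.0131), Gsta3 (a glutathione transferase, 0.46 ± 0.0898, adjusted p = 0.0319) and Blvrb (a biliverdin reductase, 0.45 ± 0.0904, adjusted p = 0.0333) were the other 4. The 19 that did not pass included glutathione reductase Gsr (0.42 ± 0.111, adjusted p = 0.0692).

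Of 20 other antioxidant enzymes and thioredoxin partners, 2 rose and 0 fell at 24 h, beside 7.84% and 4.52% of all genes. At 6 h 0 passed in limma, beside 0.816% of all genes higher and 0.0366% lower. There 1 gene had an unadjusted p under 0.05 (Txnip, 0.73, adjusted p = 0.0555). Their median was 0.15 at 24 h and 0.0011 at 6 h. The 2 were Txnip, a binding inhibitor of thioredoxin (1.26 ± 0.101, adjusted p = 0.00196), and Msrb1, a methionine sulfoxide reductase (0.61 ± 0.0794, adjusted p = 0.00958). Superoxide dismutases and catalase were among the 18 that did not pass, with Sod1 at 0.030, Sod2 at 0.21 and Cat at 0.10 at 24 h. The difference between the share of the 10 genes that rose and the shares of these lists was not tested.

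**Figure D4:**
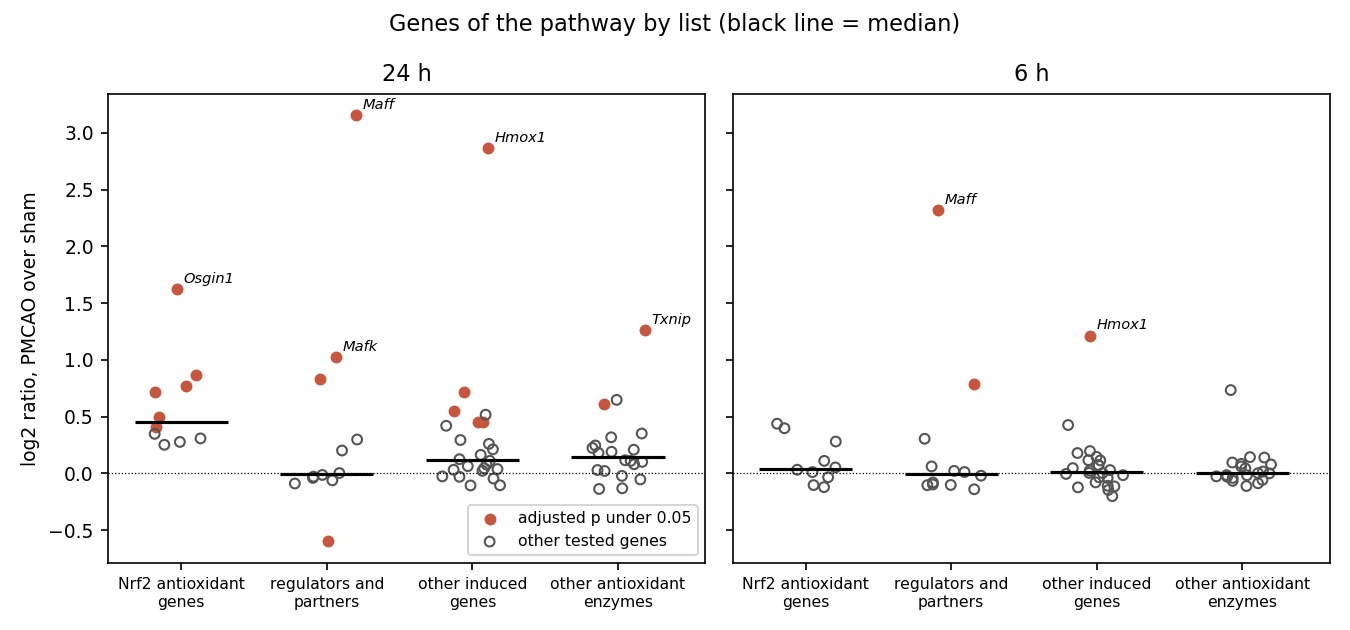
Log2 ratio of PMCAO over sham for every tested gene of 4 lists, at 24 h (left) and 6 h (right). Filled points passed an adjusted p of 0.05 and black lines are list medians. The median of the Nrf2 antioxidant genes is 0.45 at 24 h and 0.042 at 6 h, while the medians of the other 3 lists lie between -0.0054 and 0.15.

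Markers of other cells also differed between PMCAO and sham. The counts below stand beside 7.84% of all genes higher and 4.52% lower at 24 h, and 0.816% higher and 0.0366% lower at 6 h. Of 9 neutrophil and monocyte markers tested, 8 rose at 24 h and 3 at 6 h. Their summed normalised signal was 64304 to 76362 in PMCAO at 24 h, against 1918 to 2133 in sham at 24 h, and 12783 to 13781 in PMCAO at 6 h, against 2846 to 3215 in sham at 6 h. Of the 9, 5 were well above background in all 8 channels. Of 10 astrocyte markers 4 rose at 24 h (Gfap, Aldh1l1, Gjb6 and Sox9), with a summed signal of 270158 to 293143 in PMCAO and 266161 to 290755 in sham. Of 10 microglia and macrophage markers, Cd68 rose and P2ry12 and Tmem119 fell, with sums of 35784 to 38573 in PMCAO and 40398 to 43534 in sham. Of 10 endothelial markers 5 rose and 1 (Slco1a4) fell at 24 h, with sums of 55927 to 60181 in PMCAO and 41226 to 44471 in sham. At 6 h 0 of them rose and Slco1a4 fell (-1.03 ± 0.0961, limma adjusted p = 0.017). Of 3 red blood cell markers tested, Hba-a1 rose at 24 h, with sums of 31275 to 32421 in PMCAO and 21677 to 22907 in sham. At 6 h 0 astrocyte, 0 microglia and macrophage and 0 red blood cell markers passed the test in limma.

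Of 10 neuron and 10 oligodendrocyte markers 0 passed the test at 24 h in limma. At an unadjusted p under 0.05, each list had 1 marker above sham and 1 below it. Their sums were 231581 to 240414 in PMCAO and 257928 to 260706 in sham for neurons, and 240191 to 282486 in PMCAO and 207650 to 261327 in sham for oligodendrocytes. The summed signal of the 10 Nrf2 antioxidant genes was 65591 to 67300 in PMCAO at 24 h, against 44288 to 45954 in sham at 24 h, and 47827 to 48932 in PMCAO at 6 h, against 43304 to 43374 in sham at 6 h. The part of these cell types in the ratios of the 10 genes was not tested. In RNA of whole tissue, a different number of cells of a type and a different amount of RNA per cell cannot be told apart.

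Among 14723 tested genes with a gene symbol outside the list, those whose 4 ratios lay closest to the 4 of Nfe2l2 (Euclidean distance on the log2 scale, over 4 arrays) were Oaf at 0.084, Tmem190 at 0.103 and Anxa8 at 0.114. Oaf had 0.84 and 0.60 at 24 h and -0.073 and -0.14 at 6 h. These genes were picked for their closeness to Nfe2l2, so the likeness is a description only.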

How the data were processed

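The authors deposited scanner tables of the 4 arrays with spot intensity values of both dyes, produced by Agilent Feature Extraction (version 9.5.3.1 in the file headers and in the submitters' processing notes). A log10 ratio of Cy5 over Cy3, also deposited by the authors, was not used. The series table, deposited as well, holds a single value per probe whose size equalled the ratio of the processed Cy5 over Cy3 signals for 100.0% of probes, with a difference under 0.0051 taken as equal. Its sign follows the array (column medians -0.96 and 0.96 at 6 h, -0.91 and 0.95 at 24 h), and what the sign stands for is unknown.

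In limma 3.58.1 (R 4.3.3), background was removed from the mean signals by normexp with an offset of 50, and loess was run within arrays. Outlier spots (112 to 142 an array) were removed, while saturated ones (0 to 2 an array) stayed. Every log2 ratio was expressed as PMCAO over sham. Repeat spots were averaged, each gene was represented by its brightest probe, and it was tested if 1 or more of the 4 RNA groups had it well above background on each of its arrays. A single linear model of all 4 arrays (2 residual and 3.53 prior degrees of freedom) gave the ratio at each time and their difference, adjusted by the Benjamini-Hochberg method over 19127 genes at 0.05. Errors are standard errors of that model. Levels were compared between times by a separate-channel fit after Aquantile (intraspot correlation -0.411). The number of arrays limits the precision of every value.

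Probe names were updated from a RefSeq table of GRCm38.p6: 22951 by accession, 6659 by symbol and 3109 by an older symbol, while 8455 kept the files' own name. Probe positions are those of mm7, per the file headers, and gene positions and start windows those of GRCm38.p6. The 10 genes, the 3 pathway lists and the lists of neutrophil and monocyte, microglia and macrophage, astrocyte, neuron, oligodendrocyte, endothelial and red blood cell markers were chosen with earlier results of these data known. So were the motifs. All 10 genes were named with all their probes, as were the genes of the pathway lists past the test (at most 6 a list and time). A gene named outside that rule was chosen after its values were seen. Alternatives were Agilent's processed signals, median centring, the series table, no filter or a stricter one on dim probes, the mean of a gene's probes, every probe on its own, quantile normalisation of channels, each time fitted alone, each array left out and the sample number as a block.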

Additional observations from a re-analysis of the deposited data

Results flagged for a closer look

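The ratio of PMCAO over sham differed between 24 h and 6 h for 5 of the genes named, by a limma contrast of the 2 times. Over all genes, 1.29% had a higher and 0.298% a lower ratio at 24 h. Some of the genes named were chosen after their values were seen, so this count is a description only. Osgin1 had the larger shift within the 10 genes, at 1.34 on the log2 scale (adjusted p = 0.0172), and it was above 0 on 4 of 4 arrays. Nfe2l2 shifted by 0.87 (adjusted p = 0.0441), with both 24 h arrays above 0 and both 6 h arrays below it. The Osgin1 and Nfe2l2 shifts did not pass the test with processed signals, the series table or median centring. Hmox1, the haem oxygenase among the other induced genes, shifted by 1.65 (adjusted p = 0.00843) and was above 0 on 4 of 4 arrays. Hmox1 also rose in sham, by 0.61 at 24 h over 6 h (adjusted p = 0.00653). Cd68, a lysosomal protein of microglia and macrophages, shifted by 0.96 (adjusted p = 0.0396) and was above 0 on 4 of 4 arrays, with 1.00 and 1.22 at 24 h and 0.11 and 0.19 at 6 h. Anxa8 shifted by 0.79 (adjusted p = 0.0496), with both 24 h arrays above 0 and both 6 h arrays below it. It was picked for ratios close to those of Nfe2l2, so its shift is a description only. Groups of 2 arrays are too small for a test of outlying samples.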

How the results depend on the processing

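Over the 10 genes and the alternatives run for 5 comparisons, 520 values were recomputed: 444 kept their direction and their side of the threshold, 28 gained a call, 34 lost one and 14 changed sign. The sign changes were all of values that passed no test. Where no cause is named, the cause was not tested.

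At 24 h the number of the 10 that rose, 6, was 4 with processed signals and with the series table, 5 with each time alone, 0 with median centring (1 at an unadjusted p under 0.05; all genes 13 higher and 0 lower in place of 1499 and 864), and 5 to 8 with an array left out (all genes up to 2920 higher and 2840 lower). At 6 h the number, 0, was 2 with 6 h alone (all genes 940 higher and 354 lower in place of 156 and 7), 1 with the mean of probes and 0 to 2 with an array left out (all genes 76 to 940 higher, 0 to 354 lower). Over all genes at 6 h, processed signals and the series table gave 22 lower each, every probe on its own gave 4 lower and median centring gave 0 higher and 0 lower. The difference between the times, called for 2 of the 10, was called for 0 with processed signals (4 at an unadjusted p under 0.05, all genes 54 higher and 8 lower in place of 246 and 57), 0 with the series table (4 unadjusted, all genes 51 and 7), 0 with median centring (0 unadjusted, all genes 0 and 0), 1 with the stricter filter (all genes 148 and 30), 1 with the mean of probes, 1 with every probe on its own and 1 to 5 with an array left out (all genes up to 1564 and 1350, down to 14 lower). The 1 gene higher in sham was 0 to 1 with an array left out (all genes 33 to 956 higher and 66 to 663 lower in place of 497 and 319). The 8 higher in PMCAO were 5 to 8 (all genes 758 higher without array 2 at 6 h and 332 lower without array 1 at 6 h, in place of 2432 and 1631). With an array left out, 1 dye orientation remains at that time, and a time left with 1 array is assumed to vary like the other.

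Signs changed for Nfe2l2 at 6 h (0.091 with the mean of probes), Nqo1 at 6 h (-0.014 with processed signals, -0.017 with median centring, -0.013 with the series table, -0.11 to 0.13 with an array left out) and G6pdx at 6 h (0.012 with median centring, -0.11 to 0.044 with an array left out). With an array left out they also changed for the Gclc difference between times (-0.34 to 0.045), for 24 h over 6 h in sham of Gclc (-0.064 to 0.31), Osgin1 (-0.0094 to 0.098, with -0.0033 too below 0) and G6pdx (-0.021 to 0.048, with -0.0072 too below 0), and for 24 h over 6 h in PMCAO of Gclc (-0.062 to 0.015).

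The sample number is also the dye orientation, and the labels do not say that it pairs the arrays. In the model of the ratios, the sample number as a block is a term for dye orientation. The deviations of the 2 times correlated at 0.718 across genes. With the sample number as a block, 10 of the 10 rose at 24 h, 3 at 6 h and 8 in the difference (all genes 3913 higher and 3683 lower at 24 h, 1131 and 571 at 6 h, 1685 and 1530 in the difference, 1915 and 1351 in sham, 4071 and 3039 in PMCAO).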
